A study of Mus musculus with 6 samples.

Results

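Antisense lncRNAs are long noncoding RNAs read from the strand opposite to a gene. The 2637 transcripts described here were those of the lncRNA table whose position relative to a gene was given as natural or intronic antisense, with no line that placed them over a gene in the sense direction, out of 23098 lncRNA transcripts. Of these, 1706 were listed as natural antisense, 929 as intronic antisense (the deposited class for a transcript opposite an intron) and 2 as both, while a further 705 antisense transcripts were left out because another line placed them over a gene in the sense direction. By their coordinates, 201 of the intronic antisense transcripts did not lie wholly within the partner. The choice of members used no measured value. The gene on the other strand is called the partner, and in all 6770 lines of the members it lay on the opposite strand. The members were named by 2367 distinct partner symbols, and 2484 of them had 1 partner only.

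RNA came from wild-type C17.2 cells, an immortalized line of mouse neural stem cells (NSCs), in 3 control libraries and 3 libraries of the hypoxia/reoxygenation (H/R) group, whose cells were held at 5% oxygen for 12 h and then returned to standard oxygen for 48 h. All cells were grown with serum, and the line is a single established cell line. It is not given in the sources used here whether separate cultures stand behind the 3 libraries of each group, so the p-values refer to a spread between libraries that may be technical. The deposited values are raw counts, 601626 to 652393 over all lncRNAs in a control library and 1145192 to 1239163 in an H/R library. Levels of lncRNAs are given as CPM, counts per 1000000 lncRNA counts after scaling by TMM factors, and levels of genes as CPM of the gene table, so the 2 scales cannot be set against each other as amounts of RNA.

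The neural stem cell markers Nes, Sox2, Vim, Cdh2, Notch1 and Msi1 averaged at least 5 CPM, with summed levels of the 7 listed markers found in the table of 1760 to 1850 CPM in control and 2040 to 2120 CPM in H/R libraries, and the other 5 listed markers (Pax6, Sox1, Fabp7, Prom1 and Hes5) were not analysed here. The 3 astrocyte markers found summed to at most 1.37 CPM. Of 5 fibroblast and mesenchyme markers, 4 averaged at least 5 CPM, with sums of 4900 to 6840 CPM in control and 4470 to 5730 CPM in H/R libraries, and their part in the results was not tested.

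As background, an antisense RNA can act on its partner in cis, by recruiting chromatin modifiers, by transcription across the partner's promoter or by pairing with the partner's RNA, and it can also be a by-product of transcription with no known function. The best studied examples are the imprinted RNAs Kcnq1ot1, which is made from the paternal allele inside Kcnq1 and silences neighbouring genes, and Airn, which is made from inside Igf2r and silences that gene. In the developing nervous system and in Hox clusters, many genes of transcription factors carry an antisense partner.

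The start regions of 3 members that passed the test are shown here because their annotated starts lie within 20 bases of a start in RefSeq, one of them the most abundant antisense transcript and the others a member that fell and a member that rose after H/R. Sequences run from up to 250 bases before the RefSeq start to 50 after it (GRCm38.p6), bases inside a UTR of the GENCODE vM21 annotation are left out, and capitals mark the motif CCAAT on either strand, the box bound by NF-Y. The Kcnq1ot1 window (chr7:143296498-143296797, minus strand) holds 3 CCAAT boxes, the Gm15559 window (chr5:110770718-110770998, plus strand, antisense to Pus1) and the window at the start of uc008hss.1 (chr19:46305580-46305695, minus strand, antisense to Nfkb2, RefSeq symbol 4833438C02Rik) hold none, and no window holds TATAAA on either strand.
Kcnq1ot1: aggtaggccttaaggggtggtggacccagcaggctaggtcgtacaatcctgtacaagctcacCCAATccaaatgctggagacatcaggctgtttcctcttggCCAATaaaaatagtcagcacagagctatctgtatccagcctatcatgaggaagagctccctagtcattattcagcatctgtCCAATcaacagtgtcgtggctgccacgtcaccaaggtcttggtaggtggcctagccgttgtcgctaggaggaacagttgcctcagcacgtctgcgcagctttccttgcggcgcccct
Gm15559: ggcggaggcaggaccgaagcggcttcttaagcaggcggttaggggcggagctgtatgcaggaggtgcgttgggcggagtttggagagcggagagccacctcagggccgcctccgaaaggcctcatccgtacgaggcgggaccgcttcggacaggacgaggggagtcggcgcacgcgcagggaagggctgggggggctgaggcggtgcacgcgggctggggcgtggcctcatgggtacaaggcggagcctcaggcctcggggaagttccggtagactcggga
uc008hss.1: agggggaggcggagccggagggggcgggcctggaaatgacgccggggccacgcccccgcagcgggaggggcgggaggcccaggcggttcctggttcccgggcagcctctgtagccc
CCAAT stood in 37.4% of the 32817 RefSeq promoter windows of 300 bases and in 34.9% of the 361 windows of genes that share a name with a member, and TATAAA in 13.6% and 8.31% of them. Those windows were searched whole. With UTR bases left out, the Gm15559 and uc008hss.1 windows shown had 281 and 116 bases, so a lack of motifs in them is not like for like with these shares. The Gm15559 and uc008hss.1 windows were rich in G and C (69.4% and 78.4%), and that of Kcnq1ot1 held 53.3%. A match to a motif is a description of the letters and not a bound site.

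Most antisense transcripts were scarce. The median member had 11 counts summed over the 6 libraries, 1242 members had fewer than 10, and 657 had a count in every library. The filter on low counts kept 566 members (415 natural and 151 intronic) and left out 2071, which were not tested here. A member could pass this filter through the libraries of 1 group alone, as AK161464, AK144766 and AK033645 did. For such members the filter itself favours a difference between the groups, and the fold change rests on a group near 0. With looser filters more members entered the test: 52 of 1315 were called with a filter of 1 CPM in 3 libraries and 58 of 2637 with no filter, against 46. The tested members averaged 25.4 CPM at the median, 70 averaged at least 100 CPM and 5 at least 1000 CPM. Their median RNA length was 1987 bases, against 1313 bases over all members, which ranged from 21 to 83437 bases.

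More antisense transcripts rose than fell after H/R. Of the 566 tested members 35 were higher and 11 lower at an adjusted p under 0.05 (quasi-likelihood test of edgeR, p adjusted by the Benjamini-Hochberg method over all lncRNAs), or 8.13%, beside 181 higher (2.67%) and 153 lower (2.26%) of all 6779 lncRNAs tested, or 4.93%. The median log2 fold change was 0.21 over the tested members and 0.02 over all lncRNAs. The members that passed came from 45 loci that do not overlap on their strand. The same fit gave 66 higher and 100 lower of 4619 sense-overlapping lncRNAs (3.59%), and 69 higher and 39 lower of 1359 intergenic ones (7.95%). Of 217 bidirectional lncRNAs 9 were higher and 3 lower (5.53%). More higher than lower calls were thus also seen in the intergenic and bidirectional classes, and the intergenic share called was close to that of the members. The balance of directions moved with the scaling: with the library totals and factors of the gene table, the median over all lncRNAs was -0.22, the median of the members was -0.03, and 26 members were higher and 25 lower. The counts also moved with the libraries, to 20 higher and 6 lower without H/R replicate 1, 22 and 8 without H/R replicate 2 and 16 and 5 without H/R replicate 3.

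Of natural and intronic antisense transcripts, the calls were 25 higher and 8 lower of 415 natural ones (7.95%) and 10 higher and 3 lower of 151 intronic ones (8.61%). By position, 8 of 136 tested members that overlap their partner head to head (start to start) were higher and 0 lower, with a median log2 fold change of 0.42, whereas among 105 that overlap tail to tail (end to end) 5 were higher and 5 lower, with a median of 0.07. Among the head-to-head members 7 were lower at an unadjusted p under 0.05 and DESeq2 called 1 lower. Of 254 lying wholly within the partner, 16 were higher and 6 lower, and of 9 that span it 3 were higher. These differences between positions were not tested.

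**Figure D1:**
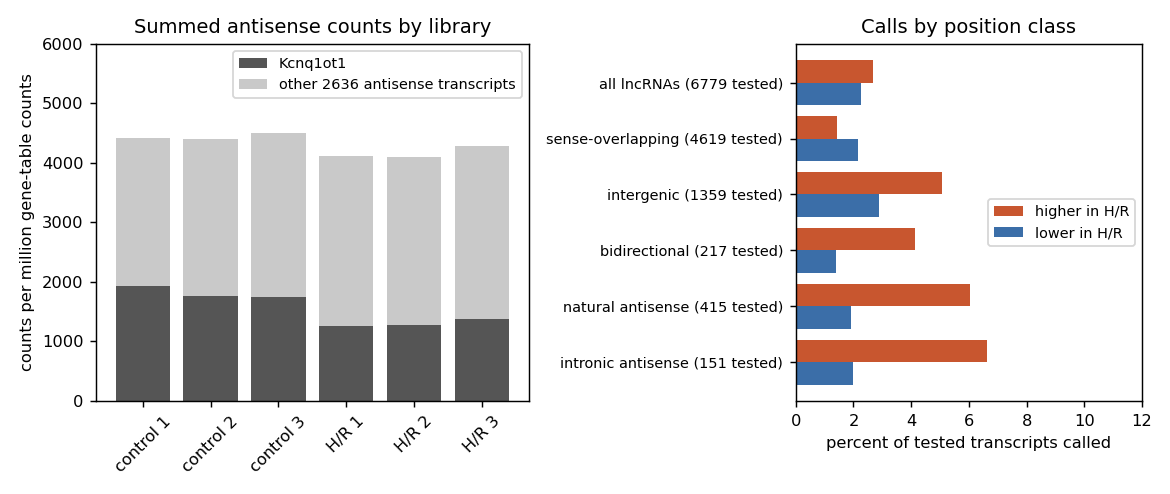
Left, for each library, the antisense counts per 1000000 gene counts (not scaled by TMM factors), summed over all 2637 transcripts, with Kcnq1ot1 in dark grey and the other members in light grey. Right, the percent of tested lncRNAs called higher (orange) or lower (blue) in H/R by position class. Both antisense classes had more transcripts called higher than lower, as had the intergenic and bidirectional classes, and the sense-overlapping class had fewer.

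A single transcript dominated the antisense counts. Kcnq1ot1 (NR_001461, chr7:143213111-143296547, minus strand) held 38.8% to 43.9% of the antisense counts of a control library and 30.6% to 32.3% of those of an H/R library. Its level was 25900, 23600 and 25300 CPM in the controls and 17700, 17800 and 18900 CPM after H/R. All 3 H/R libraries lay below all 3 controls, with a log2 fold change of -0.46 (standard error 0.10, adjusted p = 0.0128 in edgeR's quasi-likelihood test). The call was lost when no scaling factors were used (adjusted p = 0.101) and when H/R replicate 1, 2 or 3 was left out (adjusted p = 0.129, 0.0934 and 0.0574), while the log2 fold change stayed at -0.36 or lower in these 4 fits. Per kilobase of RNA, however, Kcnq1ot1 averaged 258 CPM, below the 291 CPM per kilobase of 4632419I22Rik and the 516 CPM per kilobase of BC019819.

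Summed over all members, the antisense level was 4420, 4390 and 4500 counts per 1000000 gene counts in the controls and 4120, 4100 and 4280 after H/R. The means were 4440 ± 56.9 and 4170 ± 98.7 (SD, n = 3), a ratio of 0.939, and an exact two-sided permutation test gave p = 0.1, the smallest that 3 libraries against 3 allow. Without Kcnq1ot1 the direction was the other way, 2620 ± 140 in the controls and 2860 ± 35.1 after H/R (exact permutation p = 0.1). These sums per 1000000 gene counts were not scaled by TMM factors. The factors of the gene table were 0.92 to 0.938 in the controls and 1.07 to 1.08 in the H/R libraries. Both directions thus hold for unscaled counts only, and sums scaled by these factors were not tested. As a share of all lncRNA counts the members held 5.62% ± 0.161 and 5.71% ± 0.193 (exact permutation p = 0.7), and these groups overlapped.

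Among the other abundant members, both 4632419I22Rik and BC019819 rose. 4632419I22Rik (ENSMUST00000128960, chr11:86201370-86211192, plus strand), which overlaps the end of Ints2, a gene of the Integrator complex, stood at 794, 859 and 747 CPM in the controls and 1700, 1630 and 2000 CPM after H/R. Its log2 fold change was 1.15 (standard error 0.16, adjusted p = 0.000354), and that of Ints2 was 0.01 (standard error 0.11, adjusted p = 0.974). BC019819 (uc007hxv.1), inside an intron of Camk2b, a subunit of a calcium-dependent kinase of neurons, went from 685, 742 and 745 CPM to 1440, 1410 and 1300 CPM. Both it and Camk2b rose, by 0.93 and 1.08 on the log2 scale (adjusted p = 0.00161 and 0.0362), Camk2b from a level of 2.10 to 3.22 CPM to one of 4.30 to 6.71 CPM of the gene table. A transcript inside Rbm4b, a gene of an RNA-binding protein (uc008gat.1), did not pass (1120 ± 56.2 and 1360 ± 36.4 CPM, adjusted p = 0.405). The remaining 2 of the 6 most abundant members are pseudogenes of ribosomal proteins, Rpl14-ps1 inside Trpm4 and Rpl35a-ps6 inside Wdr66. Their values are uncertain, since how the counting treated reads shared with a parent gene is not given in the sources used here. Rpl35a-ps6 stood at 1280, 977 and 1510 CPM in the controls and at 908, 877 and 26.8 CPM after H/R, and without H/R replicate 3 its log2 fold change was -0.48 in place of -1.06. Of the 41 tested members that vM21 lists as pseudogenes, edgeR called 0, with 4 at an unadjusted p under 0.05, and DESeq2 called 1. Over all 566 tested members edgeR called 8.13%, with 90 higher and 46 lower at an unadjusted p under 0.05. DESeq2 called 39 higher and 16 lower of them. The difference between pseudogenes and the other members was not tested.

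The fall with the smallest adjusted p was that of AK137065, a cDNA of chr2:34777802-34778868 (plus strand) that overlaps the end of Rabepk, the gene of an effector of Rab9. It stood at 425, 377 and 450 CPM in the controls and at 20.8, 19.8 and 13.8 CPM after H/R. Its log2 fold change was -4.51 (standard error 0.26, adjusted p = 7.13e-09), while Rabepk stood at 8.25 to 12.5 CPM and 13.3 to 14.4 CPM (log2 fold change 0.34, adjusted p = 0.243). AK137065 begins 255 bases after the annotated end of Hspa5 on the same strand, the gene of the ER chaperone BiP, whose mean level was 12100 CPM in the controls and 1510 CPM after H/R (log2 fold change -3.00, standard error 0.08). AK144766 (chr2:121438942-121439597, plus strand), antisense to Ell3, a gene of an elongation factor of RNA polymerase II, had 50, 41 and 15 counts in the controls and 5, 0 and 0 after H/R. Its log2 fold change was -5.23 (standard error 0.86, adjusted p = 0.00118), and Ell3 had a level of at most 0.0588 CPM in any library. This transcript also begins 255 bases after a gene of the ER on its own strand, Pdia3, a disulfide isomerase, which fell from a mean of 3410 to 712 CPM (log2 fold change -2.26, standard error 0.08). The share of reads that these transcripts take from RNA extended past the end of Hspa5 or Pdia3 was not tested.

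The other members that fell include Gm14377 (ENSMUST00000149742), inside an intron of Ptpn5, a neuronal tyrosine phosphatase, from 353, 281 and 279 CPM to 112, 108 and 107 CPM (log2 fold change -1.48, standard error 0.22, adjusted p = 0.000452). Gm15559 (ENSMUST00000132267), whose start is shown above and whose end overlaps that of the pseudouridine synthase gene Pus1, went from 60.5, 66.6 and 69.7 CPM to 5.83, 19.8 and 5.19 CPM. In both transcripts the groups were far apart. Gm15559 had a log2 fold change of -2.67 (standard error 0.55, adjusted p = 0.00654) and Pus1 one of -0.10 (adjusted p = 0.725). AK140810, at the end of the lipid kinase gene Pik3c2a, fell from 150, 237 and 333 CPM to 81.7, 61.2 and 92.5 CPM (log2 fold change -1.60, adjusted p = 0.00223), and Pik3c2a had a log2 fold change of -0.34 (adjusted p = 0.087). Both members of 1 pair fell: AK045661, within the retinol saturase gene Retsat, with a log2 fold change of -1.60, and Retsat, with one of -1.20 (adjusted p = 0.00877 and 4.97e-05). The controls of AK045661 ranged from 97.1 to 347 CPM, and it missed the threshold without H/R replicate 2 (adjusted p = 0.0529) or 3 (0.065). AK039809 (uc007rcy.1), antisense to the metalloprotease gene Adamts16, had 30, 8 and 17 counts in the controls and 0, 4 and 0 after H/R (adjusted p = 0.0163), and missed the threshold without control replicate 1 (0.124), H/R replicate 1 (0.0913) or H/R replicate 3 (0.0858).

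Of the members that rose, AK031976 (chr8:110974151-110975089, plus strand), at the end of the RNA helicase gene Ddx19a, went from 131, 149 and 161 CPM to 529, 470 and 612 CPM. Its log2 fold change was 1.87 (standard error 0.21, adjusted p = 3.13e-05), that of Ddx19a was -0.10 (adjusted p = 0.561), and that of St3gal2, a sialyltransferase gene that ends 1671 bases before it on the same strand, was 1.03 (standard error 0.09, adjusted p = 3.23e-06). AK085074 (chr10:83484955-83488502, plus strand), at the end of Aldh1l2, a mitochondrial folate enzyme, went from 35, 40.6 and 59.8 CPM to 225, 231 and 265 CPM (log2 fold change 2.42, standard error 0.27, adjusted p = 3.13e-05). In vM21 it lies wholly in an exon of the coding gene D10Wsu102e on its own strand, which had a log2 fold change of -0.09. AK161464, within Xrra1, had 2, 0 and 1 counts in the controls and 98, 65 and 76 after H/R, a ratio of 39.8 after correction for library size (exact 95% interval 13.5 to 194, counting error only), with an adjusted p of 0.000187. AK161464 passed the filter on low counts through the H/R libraries alone, and its ratio is to be read with that limit. Its partner had at most 1.03 CPM.

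AK137830, which spans the galanin receptor gene Galr2, rose from 65.3, 63.3 and 87.7 CPM to 321, 225 and 212 CPM (log2 fold change 1.81, adjusted p = 0.000388), with at most 0.15 CPM of Galr2 in any library. The transcript uc008hss.1, which overlaps the start of Nfkb2, a gene of an NF-kappaB subunit, rose from 25.5, 48.7 and 47.8 CPM to 166, 166 and 178 CPM (log2 fold change 2.07, standard error 0.30, adjusted p = 0.000431), and Nfkb2 had at most 0.77 CPM. For these 3 members the partner was thus near 0 in the gene table while the antisense transcript was counted. Gm26572 (ENSMUST00000181096), listed as antisense to Gm20388, rose from 103, 120 and 108 CPM to 283, 252 and 313 CPM (log2 fold change 1.36, adjusted p = 0.00118), but in vM21 it lies wholly in an exon of Mthfsd on its own strand, which had a log2 fold change of 0.25 (adjusted p = 0.224). In all, 53 members, 29 of them tested, overlap a coding exon of their own strand in vM21, and without them and the pseudogenes 33 members were higher and 11 lower.

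**Figure D2:**
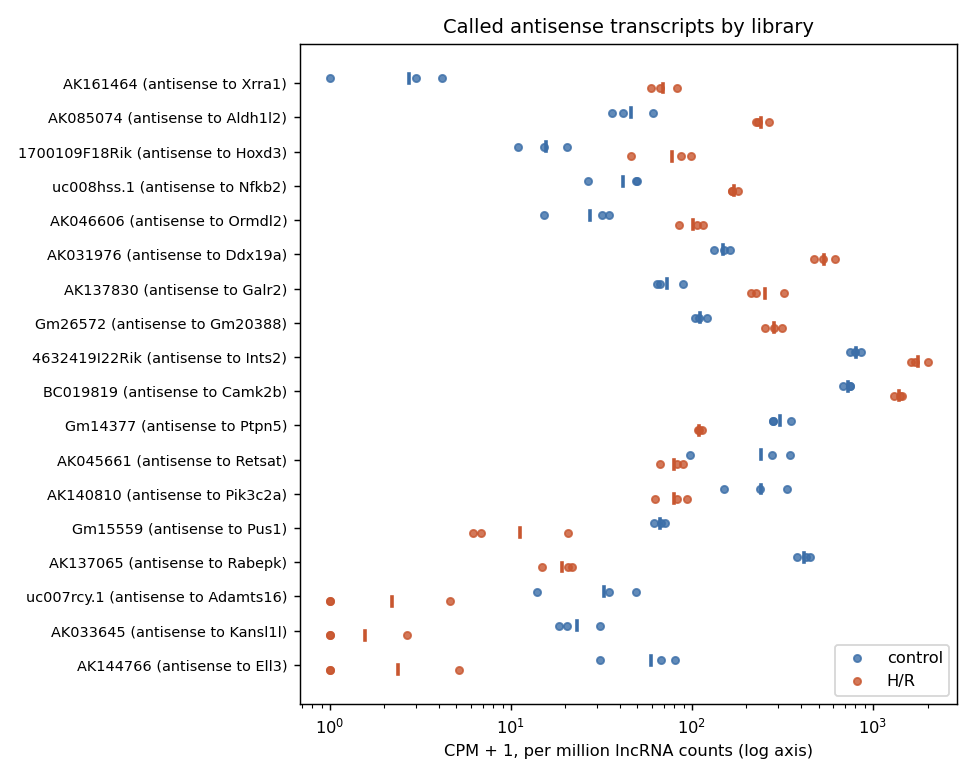
Level of 18 called antisense transcripts in each library, as CPM of the lncRNA table plus 1 on a log axis, with control libraries in blue, H/R libraries in orange and a bar at the mean of each group. In every transcript shown the 3 control and the 3 H/R libraries do not overlap, and AK161464, AK144766, AK033645 and uc007rcy.1 have libraries at 0.

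Several members can lie in 1 gene. After their values were seen, the antisense cDNAs of Ppp2r3a, which encodes a regulatory subunit of protein phosphatase 2A, were singled out because 4 of the 5 tested passed. The histone genes Hist2h2aa1 and Hist2h2aa2 were each listed with 2 called members (Gm20633 and Gm20632, both higher), and no other partner symbol had more than 1. AK047528 had 6, 9 and 1 counts in the controls and 55, 93 and 81 after H/R, and its log2 fold change was 2.87 (adjusted p = 0.0045). AK141832, AK141275 and AK139467 had log2 fold changes of 1.97, 1.60 and 1.77 (adjusted p = 0.007, 0.0265 and 0.0486), and AK087301 one of 1.34 (adjusted p = 0.0779). The H/R libraries of all 5 had 48 to 118 counts and the controls 1 to 20. Ppp2r3a itself fell, with a log2 fold change of -0.39 (adjusted p = 0.00941). The 5 cDNAs lie on 1 strand, where AK141275 and AK141832 overlap, and the 5 are not separate observations of a change.

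The antisense transcript and its partner were then set side by side. Of the partner genes, 1609 were tested, of which 313 were higher and 358 lower (41.7%), beside 18.8% higher and 19.0% lower, or 37.8%, of all 11104 genes. For 415 tested members the single partner was tested too, and these pairs hold 368 distinct partner genes. Of the 17 pairs with a higher antisense transcript, the partner was higher in 3, lower in 7 and not called in 7, but 4 of the 7 pairs with a lower partner share Ppp2r3a, so that 4 distinct partners were lower. Of the 6 pairs with a lower antisense transcript, the partner was lower in 1 and not called in 5. Where the antisense transcript was not called, 68 partners were higher and 84 lower of 392. The 2 log2 fold changes had opposite signs in 218 of 415 pairs, and across the pairs Pearson's r was -0.07 and Spearman's rho -0.06, with r = 0.22 over 115 head-to-head pairs and r = -0.28 over 74 tail-to-tail pairs. These are descriptions across pairs, which share libraries and, in part, partners. The strand setting of the counting is not given in the sources used here, and without strand, reads of an antisense transcript and of a partner exon beneath it cannot be told apart.

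A test of the difference between the 2 changes, adjusted over the 4818 lncRNA-partner pairs of all position classes, passed for 3 pairs (0.0623%), and all 3 were antisense. Over the antisense pairs 96 of 415 (23.1%) had an unadjusted p under 0.05, beside 10.1% of all pairs. The 2 shares are not like for like. Of the 6779 lncRNAs tested, 4619 were sense-overlapping, and a transcript over a gene in the sense direction can share its reads. The part of this in the difference between the shares, or in the 3 pairs all being antisense, was not tested. AK085074 and Aldh1l2 moved in opposite directions: the partner fell from 1950, 1940 and 1860 CPM to 460, 446 and 522 CPM (log2 fold change -2.01, standard error 0.09), and the difference was 4.45 (standard error 0.29, adjusted p = 0.000788). AK137065 and Rabepk differed by -4.88 (standard error 0.38, adjusted p = 0.00188). These 2 pairs passed in every alternative fit of the test. The third was AK136907 within Ddit3, the gene of the ER stress factor CHOP. Ddit3 fell from 357, 580 and 689 CPM to 55.9, 56.9 and 65.6 CPM (log2 fold change -3.19, standard error 0.19), whereas AK136907 stood at 202, 151 and 173 CPM and at 210, 190 and 218 CPM, with overlapping groups. The difference was 3.37 (standard error 0.36, adjusted p = 0.014), and it missed the threshold without control replicate 2 or 3 (adjusted p = 0.103 and 0.0868), without H/R replicate 1, 2 or 3 (0.14, 0.119 and 0.11), with the gene table totals for both (0.0957) and with replicate number as a block (0.0647).

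The next pairs by this test did not pass. AK046606 within Ormdl2, a regulator of sphingolipid synthesis, rose from 14.3, 30.8 and 33.9 CPM to 114, 83.7 and 105 CPM (log2 fold change 1.94, adjusted p = 0.00451) and Ormdl2 fell by 1.41 on the log2 scale, with a difference of 3.39 (adjusted p = 0.0616). In vM21 AK046606 also overlaps Sarnp, a coding gene of its own strand. AK031976 and Ddx19a differed by 1.96 (adjusted p = 0.0616). In the other direction, AK033645 within Kansl1l had 11, 12 and 15 counts in the controls and 2, 0 and 0 after H/R, a ratio of 38 of control over H/R after correction for library size (exact 95% interval 9.83 to 325), and its adjusted p was 0.0194 with all libraries and 0.0502 to 0.118 without any 1 of the 6 libraries. AK033645 passed the filter on low counts through the controls alone. AK051376 and Tspan4, a gene of a tetraspanin, differed by -2.52 (adjusted p = 0.0616), and AK155960 and Nusap1, a spindle protein gene, by -2.65 (adjusted p = 0.162). Tspan4 and Nusap1 rose, by 1.67 and 1.59, while the 2 antisense transcripts had log2 fold changes of -0.92 and -0.86 and did not pass.

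**Figure D3:**
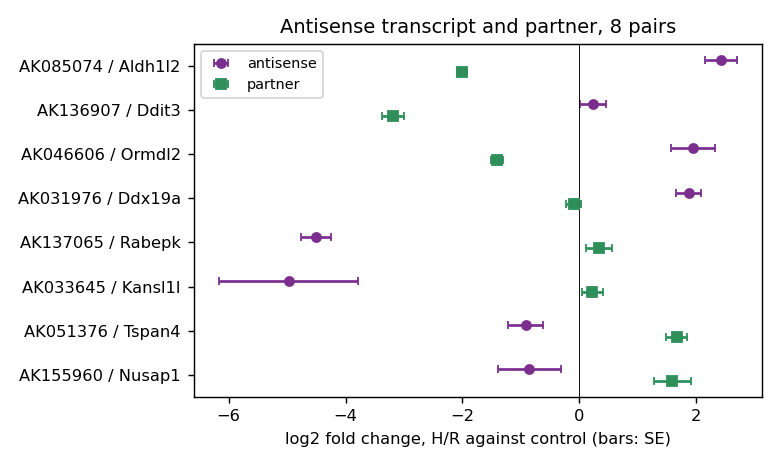
Log2 fold change after H/R of 8 antisense transcripts (circles) and of their partners (squares), with bars of 1 standard error. The pairs were picked by the test of the difference, and in each the circle and the square lie on opposite sides of 0. AK136907 and Ddx19a lie close to 0 (0.23 and -0.1). The 3 pairs that passed the test are those of Aldh1l2, Ddit3 and Rabepk.

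Each of the pathway lists used here had 0 to 3 tested members. Over all 566 tested members 8.13% were called, so 0 called of 3 is no result about a list. Of the 8 members opposite genes of ER folding and stress, 3 were tested, and edgeR called 0 of these, with 0 at an unadjusted p under 0.05 and 0 in DESeq2. Their partners Ddit3, Syvn1, a ubiquitin ligase of ER-associated degradation, and Ero1lb, an oxidase of the ER, all fell, with log2 fold changes of -3.19, -1.31 and -2.43. The transcript at Syvn1 (AK134059) had a log2 fold change of -0.83 and that at Ero1lb (AK039782) one of -0.03, with overlapping groups. The list of mitosis and replication genes does not hold every such gene (Nusap1 is not on it). Of the 8 members opposite its genes 1 was tested: AK034572 at the start of Rrm2, a subunit of ribonucleotide reductase, had 5.87 ± 6.43 CPM in the controls and 25.5 ± 4.79 CPM after H/R (log2 fold change 2.04, adjusted p = 0.209), and Rrm2 rose by 2.16 (adjusted p = 3.65e-06). None of the 5 members opposite genes of sterol synthesis and uptake passed the filter. The only member opposite genes of interferon and inflammation was uc008hss.1 at Nfkb2, which was tested and rose, as given above.

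Of the 6 members opposite hypoxia genes 3 were tested, with 0 called by edgeR, 0 at an unadjusted p under 0.05 that edgeR gave and 0 called by DESeq2. AK131850, across the start of Vegfa, the gene of a vessel growth factor, had 1.59, 0 and 15.9 CPM in the controls and 32.5, 17.1 and 18.2 CPM after H/R (adjusted p = 0.302). It passed without control replicate 3 (adjusted p = 0.0369), and Vegfa fell by 1.08 on the log2 scale. The 2 transcripts of Gm12454 at the start of Car9, a carbonic anhydrase, had log2 fold changes of -0.54 and 0.04 and overlapping groups. Of the 16 members opposite developmental transcription factors 2 were tested. 1700109F18Rik (ENSMUST00000132326), head to head with Hoxd3, rose from 14.3, 19.5 and 9.96 CPM to 45, 97.2 and 86.4 CPM (log2 fold change 2.36, standard error 0.47, adjusted p = 0.00471), and Hoxd3 rose too, from 6.44, 6.23 and 5.69 CPM to 17.9, 12.8 and 17.2 CPM (log2 fold change 1.38, standard error 0.23, adjusted p = 0.0004). Both RNAs of this head-to-head pair thus passed in the same direction, and the test of their difference gave 0.97 (adjusted p = 0.617). Gm15050 inside Hoxa3 went from 47.8, 74.7 and 81.7 CPM to 29.2, 21.6 and 25.1 CPM, groups that did not overlap, with an adjusted p of 0.0505 that fell to 0.0425 without control replicate 1.

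Of the listed antisense RNAs known by name that were tested, Kcnq1ot1 passed and the others did not. Airn had 54.1, 42.2 and 43.8 CPM in the controls and 41.7, 34.2 and 32 CPM after H/R (log2 fold change -0.38, standard error 0.41, adjusted p = 0.725), and Igf2r, the receptor gene that it silences on one allele, had a log2 fold change of 0.14 (adjusted p = 0.186). The Tug1 transcript that overlaps the start of Morc2a had 30.8 ± 4.31 and 19.1 ± 4.69 CPM (adjusted p = 0.599). The 2 transcripts antisense to Bace1, the gene of the beta-secretase, had log2 fold changes of 0.02 and 0.25 (adjusted p = 0.979 and 0.763), whereas Bace1 rose by 0.72 (adjusted p = 7.67e-05). Nespos and Hoxa11os, with 2 and 3 counts in all, and a second Airn transcript with 7 were below the filter.

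The changes of antisense transcripts were also set beside those of the coding gene before them on their own strand. This comparison was added after the values of AK137065 and AK144766 had been seen. It took the 152 tested members that overlap no coding gene of their own strand and begin within 5 kb after the end of one that was tested. Across these, Pearson's r of the log2 fold changes was 0.58 and Spearman's rho 0.44, and 0.45 and 0.42 over the 150 left without the neighbours of Hspa5 and Pdia3. For the 110 of them whose partner was tested as well, r was 0.62 with the upstream gene and -0.03 with the partner. By distance, r was 0.67 under 1 kb (n = 50), 0.49 from 1 to 5 kb (n = 102), 0.34 from 5 to 20 kb (n = 77) and 0.15 beyond 20 kb (n = 155). Spearman's rho in the same order was 0.33, 0.49, 0.24 and 0.15, and so did not fall steadily with distance. Under 1 kb and without the neighbours of Hspa5 and Pdia3, r was 0.40 and rho 0.24. Of the 7 other called members within 5 kb, 6 had the sign of the upstream gene, which had itself passed in 4 of these. They include AK085763 opposite Ubtd2, which rose by 1.83 while Efcab9, 2309 bases before it, rose by 2.34, and AK082454, which rose by 0.99 while Zfp800 rose by 0.52. AK032489, opposite Ctsw, rose by 2.81 where Fibp had a log2 fold change of -0.28. The correlations are across transcripts that share the 6 libraries, are no replicates, and carry no test.

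**Figure D4:**
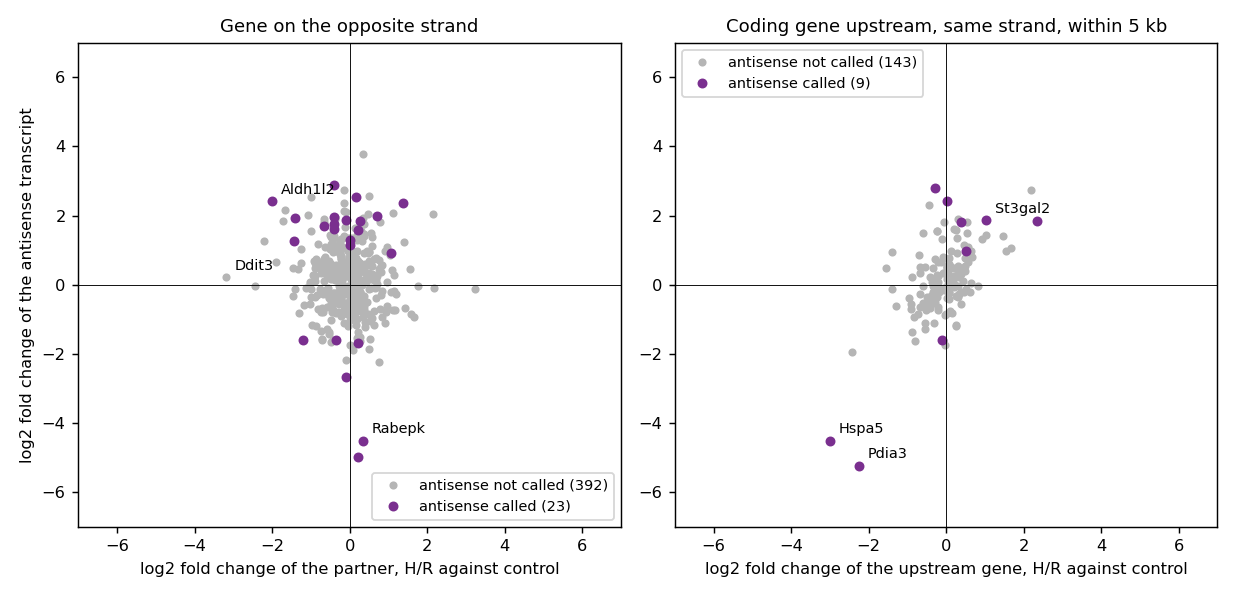
Log2 fold change of antisense transcripts (vertical axis) against that of the gene on the opposite strand (left, 415 pairs) and of the coding gene that ends within 5 kb before them on the same strand (right, 152 transcripts), with called antisense transcripts in purple. The left cloud shows no slope (r = -0.07) and the right one a rising slope (r = 0.58), with the neighbours of Hspa5 and Pdia3 at the lower left.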

How the data were processed

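The authors removed adapters with cutadapt 1.9.3, used HISAT2 2.0.4 for alignment to mm10 and HTSeq 0.9.1 for counting of genes, as the submitters' processing notes and the study's methods state, after removal of ribosomal RNA. The deposited lncRNA and gene tables hold raw counts, and the counting tool of the lncRNA table is not given in the sources used here. A further 12 columns with log2 normalized values were left out, as were the authors' own fold changes and p-values or the circRNA table.

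Each transcript was taken once from its repeated lines. All 23098 lncRNAs and, separately, all 14665 genes were fitted in R 4.3.3 with edgeR 4.0.16 (filterByExpr, TMM, glmQLFit and glmQLFTest, two-sided, Benjamini-Hochberg over all features tested, threshold 0.05). The coefficient of variation between replicates was 0.405 for lncRNAs and 0.144 for genes. The difference between a lncRNA and its partner was tested in the same way with both counts as 2 columns per library. DESeq2 1.42.0 and limma 3.58.1 served as alternatives. The scripts were tested on simulated data. No library duplicated another of its group (chi-square per degree of freedom 4.86 to 7.26). Intervals cover counting error only.

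The members and lists were chosen with earlier results of these data known. Named are the 8 smallest adjusted p per direction (1 per partner), the 6 highest levels, known antisense RNAs, the 4 smallest p per direction of the pair test and up to 3 members per partner list, and any other name was chosen after its values were seen. GENCODE vM21 (GRCm38) gave neighbours and biotypes, and 1020 members matched it by ID. Starts are given 1-based, but those of GenBank cDNAs (names in AK) are as deposited and may be off by 1 base. Promoter sequences are from RefSeq (GRCm38.p6), in which 313 members matched by gene name.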

Additional observations from a re-analysis of the deposited data

How the results depend on the processing

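Counts of calls depended most on scaling, thresholds and the number of H/R libraries. With the totals and factors of the gene table, 114 lncRNAs were higher and 314 lower, and 25 antisense transcripts were lower. With the thresholds of the study (at least 2-fold, with p under 0.05 before adjustment), 469 lncRNAs were higher and 337 lower, 75 and 30 antisense transcripts, and 89 and 95 partner genes. Without scaling factors, 549 partner genes were higher and 216 lower. Leaving out 1 library in turn gave 78 to 184 higher and 78 to 148 lower lncRNAs, 16 to 38 higher and 5 to 11 lower antisense transcripts, and 1 to 2 pairs with a higher antisense transcript. Intronic antisense transcripts taken alone gave 10 higher and 3 lower. In the test of pairs, higher and lower calls were 6 and 2 among pairs with at least 10 counts in every group mean and 4 and 2 with limma on the log2 ratio, and 1 pair was higher with the gene table totals for both. The summed antisense level after H/R was 1.02 times that of the controls as a share of lncRNA counts and 1.06 times without the 5 most abundant members, against 0.939. No TMM factors entered these ratios. Of 503 alternative values of named transcripts, 478 kept their side of the threshold, 15 no longer passed, 10 newly passed, and 0 of the called ones changed direction. Gm15050 was among the newly passing ones with DESeq2 (adjusted p = 0.0268). All lines of all 2637 members were antisense, so keeping only such transcripts left the counts as they were. The alternative without pseudogenes and same-strand exons was chosen after seeing the data.

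Same-numbered libraries did not deviate together (r from -0.01 to 0.04), and they were not treated as pairs. Whether they were matched by design is not given in the sources used here. With replicate number as a block, 31 antisense transcripts were higher and 11 lower, and 1 pair was higher, since that of Ddit3 missed the threshold (adjusted p = 0.0647). Depth limits most members: 2071 did not pass the filter on low counts.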
